A study of Homo sapiens with 4 samples.

Results

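PERP and the genes of the desmosome were described in TU-177 cells with and without knockdown of SKA3. The genes were a list of 10 (PERP, DSP, JUP, PKP1, PKP2, PKP3, DSG2, DSG3, DSC2 and DSC3), of which 9 had a row among the 28729 genes of the expression table and DSG3 was not analysed here. The list was drawn up around PERP because its fall was among the largest in these same libraries, so the values of PERP are given as a description without a test. Of the other 8 genes with a row, 7 passed the filter on low values and were tested.

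TU-177 is an established human cell line of laryngeal squamous cell carcinoma (LSCC). RNA sequencing covered 4 libraries, 2 of the negative control (NC) and 2 of SKA3 knockdown (SKA3-KD). Cells of both groups were grown in DMEM with fetal bovine serum, received a lentivirus carrying an shRNA (negative control or against SKA3) and were harvested after puromycin selection, so the controls share the virus and the drug. The library titles name an shRNA, while the paper describes its stable SKA3 knockdown lines as made with Cas9 and a guide RNA. The shRNA sequence and whether the libraries came from separate cultures were not given in the sources used here, and p-values then measure only the spread between these libraries, which may be technical. The library sizes, worked back from the FPKM values and not reported as such, were between 9015056 and 11966130 reads.

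Desmosomes are patches of adhesion that join neighbouring epithelial cells and anchor their keratin filaments. Desmosomal cadherins (desmogleins and desmocollins) reach across the gap between the cells, the armadillo proteins plakoglobin and the plakophilins bind their cytoplasmic tails, and desmoplakin ties this plaque to keratin. PERP is a tetraspan membrane protein of desmosomes in stratified epithelia.

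PERP and DSC2 are the members with the lower values described next, and their promoters are shown for that reason. The windows are from RefSeq (GRCh38.p14) and cover 300 bases each, 5′ to 3′ on the strand of the gene, ending shortly after the annotated start. Capitals mark the AP-1 motif TGAGTCA, which reads TGACTCA when it lies on the other strand. They also mark the E-box variant CACCTG, which reads CAGGTG there. Other E-box variants were not searched and are not marked. The PERP window lies at chr6:138107370-138107669 on the minus strand, and the DSC2 windows at chr18:31102372-31102671 and chr18:31101211-31101510, also on the minus strand.
PERP: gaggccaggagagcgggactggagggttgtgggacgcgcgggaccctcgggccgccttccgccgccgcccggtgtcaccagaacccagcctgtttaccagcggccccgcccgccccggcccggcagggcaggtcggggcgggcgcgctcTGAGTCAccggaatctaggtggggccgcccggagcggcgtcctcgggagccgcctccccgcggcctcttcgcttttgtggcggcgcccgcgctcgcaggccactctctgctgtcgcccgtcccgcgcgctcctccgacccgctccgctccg
DSC2, upstream start: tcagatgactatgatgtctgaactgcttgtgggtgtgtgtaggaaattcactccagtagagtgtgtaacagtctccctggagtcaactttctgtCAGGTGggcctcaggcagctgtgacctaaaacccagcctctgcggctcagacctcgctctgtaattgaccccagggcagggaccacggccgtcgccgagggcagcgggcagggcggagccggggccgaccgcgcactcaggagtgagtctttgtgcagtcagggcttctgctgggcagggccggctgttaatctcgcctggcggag
DSC2, downstream start: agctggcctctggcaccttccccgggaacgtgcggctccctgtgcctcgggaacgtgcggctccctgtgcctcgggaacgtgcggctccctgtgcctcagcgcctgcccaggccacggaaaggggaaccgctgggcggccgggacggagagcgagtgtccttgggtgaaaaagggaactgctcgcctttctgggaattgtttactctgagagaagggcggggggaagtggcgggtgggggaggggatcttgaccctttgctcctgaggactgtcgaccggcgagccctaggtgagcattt
The PERP window held 1 AP-1 match, beginning 101 bases before the start, and its GC content was 77.0%. The upstream DSC2 window held 1 match of this E-box variant, 156 bases before the start, and the downstream window held none. RefSeq windows were matched for 8 of the 10 members, 10 windows in all, without PKP2 and PKP3. The AP-1 motif was found in 1 of these 10 windows (that of PERP) and in 4.96% of all 34943 promoter windows. The E-box variant CACCTG was found in 4 of the 10 windows, of 4 members, and in 20.6% of all windows. The GC box, GGGCGG or on the other strand CCGCCC, was found in 7 of the 10 windows, of 6 members, with 5 matches in the PERP window, and in 44.9% of all windows. Each match is a match of letters and no binding was measured.

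SKA3, a kinetochore protein and the target of the shRNA, was at 9.40 and 9.64 FPKM (fragments scaled to exon length and to the mapped fragments of the library) in NC 1 and NC 2 and at 3.77 and 4.12 FPKM in SKA3-KD 1 and SKA3-KD 2. The level in SKA3-KD was 41.4% of that in NC, and its log2 difference was -1.09 (SE 0.07, adjusted p = 0.00806, limma). This and all later log2 differences are SKA3-KD minus NC on log2(FPKM + 1), which understates the change of low genes. Adjusted p-values are from limma over the 12645 genes tested, with a threshold of 0.05, and SEs are those of the fit.

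PERP stood at 72.7 and 66.1 FPKM in the control libraries, and the knockdown libraries gave 20.5 and 18.6 FPKM. Both NC libraries lay far above both SKA3-KD libraries, and the spread within a group was small against the distance between the groups. The mean was 69.4 ± 4.68 FPKM (SD, n = 2) in NC and 19.6 ± 1.35 FPKM in SKA3-KD, or 28.2% of the NC level. The log2 difference was -1.77 (SE 0.08, 95% interval -1.98 to -1.57). PERP was chosen for this fall, so the SE and the interval are not corrected for that choice and are no test. Behind these values were 3734 and 2557 control reads and 897 and 943 knockdown reads, which could be worked back from the FPKM values. Ordered from the lowest log2 difference, PERP was number 15 of the 12645 genes tested and number 5 of the 7303 genes with a mean of at least 5 FPKM. In bulk RNA, fewer cells that express a gene and less RNA of it per cell cannot be told apart.

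**Figure D1:**
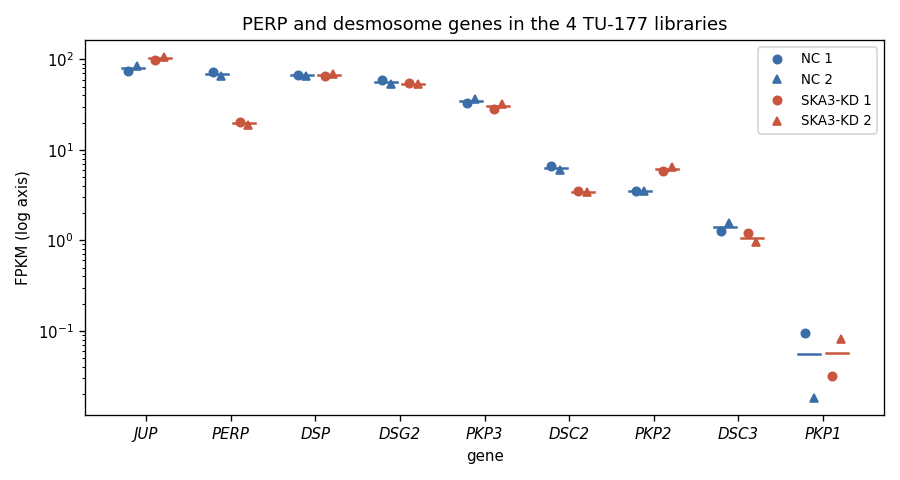
FPKM of the 9 members with a row, in each library (log axis, points; circles and triangles are replicates 1 and 2, and short lines the group means). PERP lies at 72.7 and 66.1 FPKM in NC and at 20.5 and 18.6 FPKM in SKA3-KD, while the points of DSP lie between 65.8 and 68.7 FPKM in all libraries.

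In NC cells PERP was among the most abundant of these genes per length. The order of mean FPKM was JUP (79.9), PERP (69.4), DSP (66.6), DSG2 (56.5), PKP3 (34.8), DSC2 (6.37), PKP2 (3.50), DSC3 (1.41) and PKP1 (0.0560). The values of the NC libraries of PERP and DSP overlapped and so did not set these neighbours apart, whereas those of JUP and PERP, and of every later pair of neighbours, did not overlap. JUP was at the 98.1st percentile of the 26504 genes above 0 and PERP at the 97.6th.

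The plaque protein desmoplakin (DSP) was not called. It was at 67.4 and 65.8 FPKM with the control shRNA and at 66.1 and 68.7 FPKM with the SKA3 shRNA, and the groups overlapped. The log2 difference was 0.02 (SE 0.06, 95% interval -0.13 to 0.16, adjusted p = 0.869). The ratio of PERP to DSP in FPKM was 1.08 and 1.01 in the NC libraries and 0.311 and 0.271 in the SKA3-KD libraries. Since DSP hardly moved, this ratio restates the difference of PERP itself.

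Plakoglobin (JUP), the armadillo protein shared by desmosomes and adherens junctions, was at 74.8 and 85.0 FPKM in NC and at 99.8 and 105.8 FPKM in SKA3-KD. Both SKA3-KD libraries were above both NC libraries, with a mean of 79.9 ± 7.21 FPKM in NC and 102.8 ± 4.21 FPKM in SKA3-KD. The log2 difference of 0.36 (SE 0.08, 95% interval 0.15 to 0.57) just missed the threshold (adjusted p = 0.0508). It passed in 4 of 8 ways of processing all 4 libraries, with adjusted p-values between 0.000336 and 0.136, so the call on JUP depends on the setting.

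Of the plakophilins, which bind desmoplakin and strengthen the plaque, only PKP2 passed the threshold. PKP2 was at 3.47 and 3.53 FPKM in NC and at 5.84 and 6.44 FPKM in SKA3-KD. It rose to 175.6% of the NC level without overlap of the groups, by a log2 difference of 0.67 (SE 0.08, 95% interval 0.46 to 0.88, adjusted p = 0.0165). PKP3, the main plakophilin of these cells, was at 33.0 and 36.5 FPKM in NC and at 28.6 and 32.3 FPKM in SKA3-KD. Both SKA3-KD values of PKP3 were below both NC values, but its log2 difference of -0.19 (SE 0.09, 95% interval -0.41 to 0.04) did not pass (adjusted p = 0.218). PKP1, the plakophilin of upper epidermal layers, was supported by 7, 1, 2 and 6 reads in the 4 libraries and was below the filter of a mean of 1 FPKM, so it was not tested. With any 1 of the 4 libraries left out, the log2 difference of PKP2 was 0.61 to 0.73. Such a fit leaves 1 library in a group, so it cannot decide whether the call holds.

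Within the summed FPKM of the plakophilins, PKP2 took 9.48% and 8.81% in NC and 17.0% and 16.6% in SKA3-KD. PKP3 took 90.3% and 91.1% in NC and 82.9% and 83.2% in SKA3-KD. The share of PKP2 was 7.64 percentage points higher in SKA3-KD, with no overlap of the groups. The two-sided exact permutation p was 0.333, the smallest that 2 against 2 libraries allow, so this design cannot reach 0.05 for a share.

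**Figure D2:**
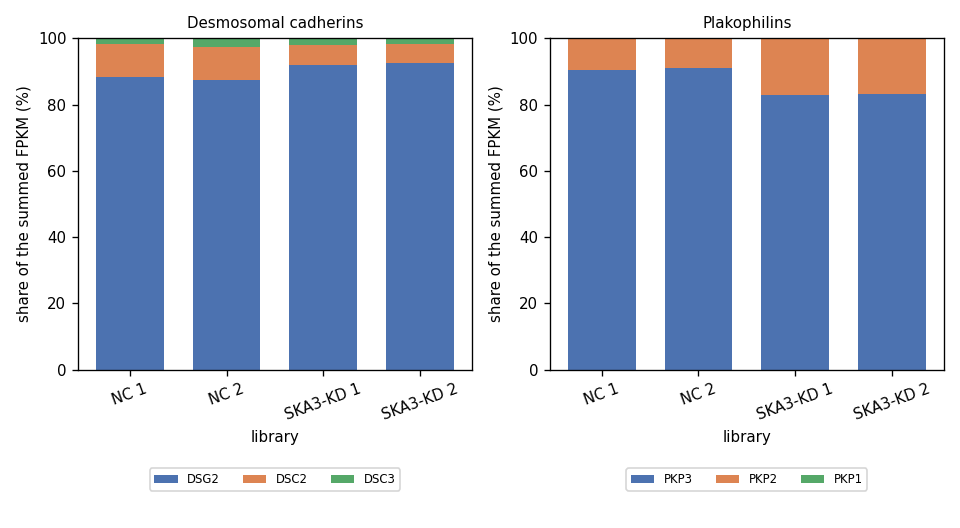
Share (%) of each gene in the summed FPKM of the desmosomal cadherins DSG2, DSC2 and DSC3 (left) and of the plakophilins (right), 1 bar per library. The share of PKP2 is 9.48% and 8.81% in the NC bars and 17.0% and 16.6% in the SKA3-KD bars, and the share of DSG2 is 88.2% and 87.5% in NC and 92.1% and 92.5% in SKA3-KD.

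Of the cadherins, DSC2 (desmocollin 2) fell and desmoglein 2 did not pass the test. DSC2 was at 6.72 and 6.02 FPKM in NC and at 3.49 and 3.40 FPKM in SKA3-KD, without overlap. The mean fell from 6.37 ± 0.497 FPKM to 3.44 ± 0.0633 FPKM (SD, n = 2), or 54.1% of the NC level, by a log2 difference of -0.73 (SE 0.08, 95% interval -0.94 to -0.51, adjusted p = 0.015). Behind them were 421 and 284 control reads and 186 and 210 knockdown reads. For DSC2 the reads rest on the shortest length that gave whole reads, so they may be too low. With any 1 library left out, the log2 difference of DSC2 was -0.80 to -0.66. Such a fit leaves 1 library in a group, so it cannot decide whether the call holds.

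DSG2, the desmoglein of simple epithelia and of many cell lines, was at 59.9 and 53.1 FPKM in NC and at 54.3 and 53.4 FPKM in SKA3-KD. The groups overlapped, and the log2 difference was -0.07 (SE 0.08, 95% interval -0.26 to 0.13, adjusted p = 0.601). DSC3, the desmocollin of basal layers, was low, at 1.27 and 1.56 FPKM in NC and at 1.20 and 0.949 FPKM in SKA3-KD. Its groups did not overlap, but the log2 difference of -0.22 (SE 0.16, 95% interval -0.63 to 0.19) did not pass the test (adjusted p = 0.41). DSC3 took 15.9% and 20.6% of the summed FPKM of DSC2 and DSC3 in NC and 25.5% and 21.8% in SKA3-KD (two-sided exact permutation p = 0.333, the smallest possible). The antisense gene DSG2-AS1, opposite DSG2, was at 0.124 to 0.388 FPKM, and DSCAS, opposite DSC2, was at 0 in 3 libraries and at 0.307 FPKM in SKA3-KD 2. Whether the counting used strand was not given in the sources used here, so reads of these pairs cannot be told apart.

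**Figure D3:**
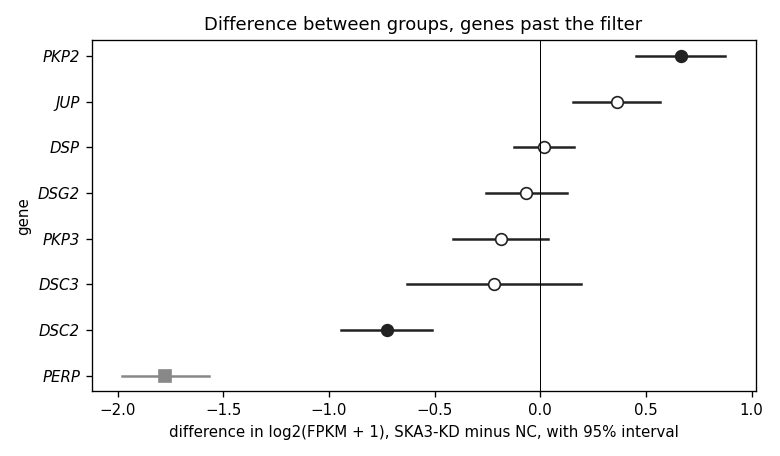
Log2 difference, SKA3-KD minus NC on log2(FPKM + 1), of the 8 members past the filter, with the 95% interval of the limma fit. PERP, which was selected on this value, stands at -1.77; DSC2 is at -0.73, PKP2 at 0.67 and JUP at 0.36, and the intervals of DSP, DSG2, DSC3 and PKP3 include 0.

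Of the 7 members tested, 1 was lower (DSC2) and 1 higher (PKP2) past the threshold. Among all genes tested, 6.11% were lower and 6.16% higher past it. The groups did not overlap in 5 of the 7, and in 61.6% of all genes tested. The median log2 difference of the 7 members was -0.07, against 0.01 over all genes.

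Of the 5 genes with a mean of at least 5 FPKM whose 4-library profile was most like that of PERP, 4 are given here: PDK4, RHOBTB1, CIAO2B and RMRP. Likeness was the Euclidean distance between the log2 values in the 4 libraries, each taken from the NC mean of its gene. It was 0.12 for PDK4, a mitochondrial kinase that restrains pyruvate dehydrogenase, and 0.267 for RMRP, the RNA of the RNase MRP. The log2 differences of these genes lay between -1.92 (CIAO2B) and -1.71 (RMRP). None of these 4 is a member of the desmosome lists, and since they were chosen for this likeness their values are a description.

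In the PMP22, EMP and TMEM47 family, tetraspan membrane proteins related to PERP, 2 of the 5 genes fell and 1 rose. TMEM47 was at 9.42 and 9.25 FPKM in NC and at 1.91 and 3.33 FPKM in SKA3-KD. It fell to 28.1% of the NC level, a log2 difference of -1.54 (SE 0.19, adjusted p = 0.0169). The control libraries held 457 and 338 TMEM47 reads and the knockdown libraries 79 and 159. EMP1 was at 7.24 and 6.39 FPKM in NC and rose to 17.5 and 15.2 FPKM, a log2 difference of 1.15 (SE 0.10, adjusted p = 0.0102). EMP3 fell from 34.3 and 35.3 FPKM to 27.4 and 28.2 FPKM (log2 difference -0.31, adjusted p = 0.0336). EMP2 and PMP22 did not pass, at log2 differences of -0.12 and 0.09 (adjusted p = 0.258 and 0.627). The groups of TMEM47, EMP1, EMP2 and EMP3 did not overlap, which held for 61.6% of all genes tested. The called genes of this protein family lay in both directions. With any 1 library left out, the log2 difference of TMEM47 was -1.83 to -1.26.

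**Figure D4:**
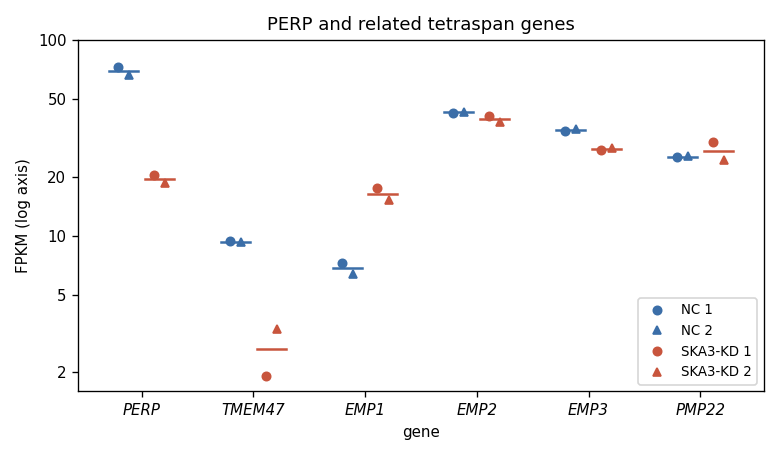
FPKM (log axis) of PERP and of the PMP22, EMP and TMEM47 family in each library, with lines at the group means. TMEM47 lies at 9.42 and 9.25 FPKM in NC and at 1.91 and 3.33 FPKM in SKA3-KD, EMP1 at 7.24 and 6.39 FPKM in NC and at 17.5 and 15.2 FPKM in SKA3-KD, and the groups of PMP22 overlap.

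Of 7 further desmosomal and cornified-envelope genes, 5 had a row and 3 were tested. PKP4, an armadillo protein related to p120 catenin, rose from 6.83 and 6.21 FPKM to 9.56 and 10.0 FPKM (log2 difference 0.52, SE 0.08, adjusted p = 0.0224). The plakins EVPL (envoplakin) and PPL (periplakin) did not pass, at log2 differences of 0.46 and 0.12 (adjusted p = 0.0526 and 0.209). DSG4 and CDSN were below the filter. Of 4 regulators of desmosomes, PRKCA, a kinase that acts on desmosome adhesion, rose with a log2 difference of 0.46 (adjusted p = 0.0249), and ADAM10, ADAM17 and ATP2A2 did not pass.

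Of 11 keratins, the filaments that desmosomes anchor, 9 had a row, 4 were tested, 1 fell and 1 rose. KRT17 fell from 45.6 and 49.1 FPKM to 29.4 and 35.7 FPKM (log2 difference -0.53, adjusted p = 0.0396). KRT18 rose from 31.1 and 31.5 FPKM to 39.2 and 38.5 FPKM (log2 difference 0.30, adjusted p = 0.0332). KRT8, its partner in simple epithelia, was the highest keratin, with 430.0 to 452.6 FPKM in the 4 libraries and a log2 difference of 0.05 (adjusted p = 0.581). KRT8, KRT17 and KRT18 have near-identical copies elsewhere in the genome that could share their reads, which makes these values uncertain.

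The adherens and tight junctions held genes of both directions as well. In the adherens junction, 9 of 11 genes were tested, and NECTIN4 fell while CDH2 and NECTIN2 rose. CDH2 (N-cadherin) was at 5.27 and 5.00 FPKM in NC and at 8.91 and 9.88 FPKM in SKA3-KD (log2 difference 0.76, adjusted p = 0.0129). NECTIN2 was at 11.1 and 11.6 FPKM in NC and at 20.8 and 19.1 FPKM in SKA3-KD (log2 difference 0.76, adjusted p = 0.0113). NECTIN4, at 1.86 and 1.74 FPKM in NC and 0.644 and 0.628 FPKM in SKA3-KD, had a log2 difference of -0.77 (adjusted p = 0.0373). Both nectins are immunoglobulin-like adhesion molecules.

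In the tight junction, 6 of 10 genes were tested, 1 fell and 1 rose. The claudin CLDN7 fell from 16.3 and 15.2 FPKM to 10.1 and 10.3 FPKM (log2 difference -0.58, adjusted p = 0.015), whereas CLDN1 rose by a log2 difference of 0.71 (adjusted p = 0.0356). In the gap junction, the connexin GJB5 was the 1 gene tested of 2 with a row, and it fell with a log2 difference of -0.64 (adjusted p = 0.0344). In the hemidesmosome, which anchors cells to the basement membrane, 6 of 9 genes were tested and integrin beta 4 (ITGB4) alone passed. ITGB4 was at 12.5 and 15.1 FPKM in NC and rose to 28.0 and 32.7 FPKM in SKA3-KD (log2 difference 1.08, SE 0.12, adjusted p = 0.014). Over these lists together, 38 genes were tested, 6 fell and 8 rose, where 6.11% of all genes tested were lower and 6.16% higher. The lists were chosen with results of these libraries known, so nothing is read from this difference. The median log2 differences were 0.46 for the further desmosomal genes, 0.13 for the regulators, -0.12 for the PMP22, EMP and TMEM47 family, -0.14 for the keratins, 0.11 for the adherens junction, -0.05 for the tight junction and 0.08 for the hemidesmosome, against 0.01 over all genes.

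**Figure D5:**
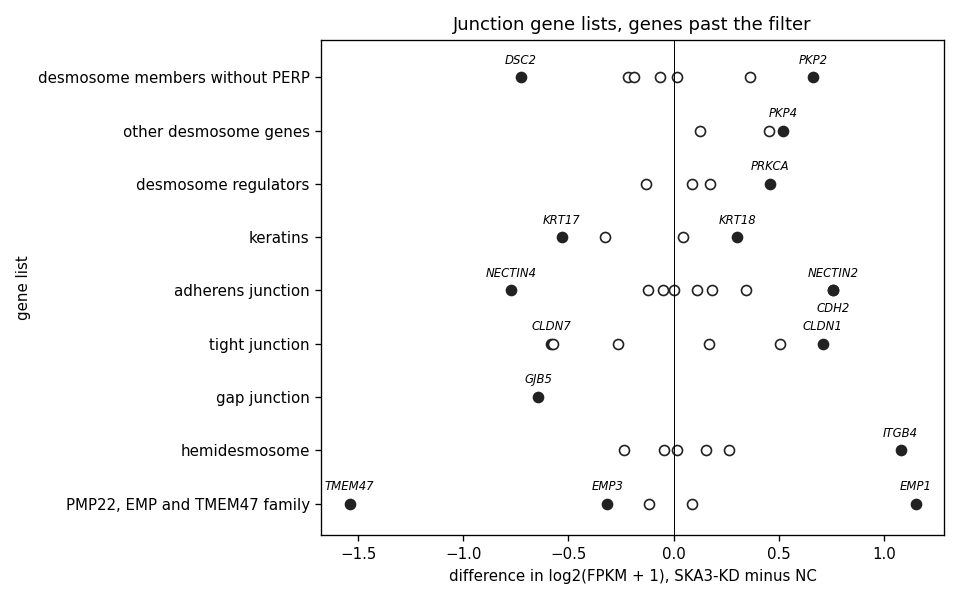
Log2 difference, SKA3-KD minus NC on log2(FPKM + 1), of each tested gene of the desmosome members without PERP and of the other lists, 1 row per list. Filled points are past an adjusted p of 0.05 and are named, and open points are not; called genes lie on both sides of 0 in the keratin, adherens junction and tight junction rows.

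All 14 of these list genes past the threshold kept their direction in every alternative in which they were tested. That includes the fits with 1 of the 4 libraries left out. Those fits leave 1 library in a group, so they cannot decide whether a call holds.

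A list of 6 epithelial markers was read beside the squamous label of the cells. KRT5, KRT14, KRT6A, TP63 and CDH1 were all below a mean of 1 FPKM, KRT5 at 0 in 3 of the 4 libraries and KRT14 at 0 in 3, so the keratin pair of basal squamous cells was near absent. EPCAM was at 2.73 to 2.95 FPKM and its groups overlapped. The summed FPKM of the 6 genes was 3.39 and 3.96 in NC and 3.89 and 3.50 in SKA3-KD, and the groups overlapped.

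Of 7 fibroblast markers, the summed FPKM was 15.4 and 15.8 in NC and 8.89 and 9.59 in SKA3-KD. Decorin (DCN) made up most of that difference, with 8.40 and 8.36 FPKM in NC and 2.48 and 2.35 FPKM in SKA3-KD (log2 difference -1.46, SE 0.07, adjusted p = 0.0065). COL1A1 and PDGFRB did not pass, at log2 differences of -0.32 and 0.34 (adjusted p = 0.14 and 0.165), and the other 4 (COL1A2, COL3A1, LUM and THY1) were below a mean of 1 FPKM. COL1A2 was at 0 in 3 of the 4 libraries. The part of this list in the fall of PERP was not tested. All 4 leukocyte markers and both endothelial markers with a row were below a mean of 1 FPKM.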

How the data were processed

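RNA of TU-177 cells, 2 NC and 2 SKA3-KD libraries, was sequenced by the authors, who deposited FPKM values per gene, normalized for length and library size. The submitters' processing notes name HISAT2, Bowtie2 2.2.8, StringTie 1.3.1, Cuffdiff 2.1.1 and hg19, without giving their roles. All 4 value columns were used. Gene symbols came from GENCODE 29 (GRCh38) by Ensembl identifier, for 27199 of 28729 genes, and promoter windows from RefSeq (GRCh38.p14).

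SKA3-KD was compared with NC by limma 3.58.1 (R 4.3.3; lmFit, eBayes with a trend) on log2(FPKM + 1), over the 12645 genes whose mean FPKM reached 1, with Benjamini-Hochberg adjustment. Shares were compared by exact permutation tests written in Python 3.11.15, and the 95% intervals used the t distribution of scipy 1.17.1. Whole reads were recovered for 99.97% of the tested genes (tolerance 0.003 reads), 61.3% with the GENCODE 29 length and 38.6% with a length found by search, and served for depth and for limma voom, an alternative added after the data were seen. The steps were tested on simulated data, where the limma fits had reads of the same dispersion for every gene. That test does not show how the fits behave at the spread of these libraries.

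The members and gene lists were chosen with earlier results of these data known. The results of some genes of these lists, and of 1 gene with a profile near PERP, are not reported here, and the counts are over the others. Genes named are SKA3, the members, the list genes past the threshold, some markers at 0, and the genes given above as nearest to PERP in profile. Other list and marker genes are named in addition, chosen after their values were seen. Settings varied in turn were the pseudocount (0.1), the filter (none, or a mean FPKM of 5), the scaling (quantile normalization or median of ratios), the eBayes trend (left out), a replicate block, and the libraries (each left out).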

Additional observations from a re-analysis of the deposited data

How the results depend on the processing

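With all 4 libraries, 1 member was lower (DSC2) and 1 higher (PKP2). Without a filter on low FPKM 0 were lower and 0 higher (DSC2 adjusted p = 0.0647, PKP2 adjusted p = 0.0659). With a mean FPKM of at least 5, 0 were lower and 1 higher, and that gene was JUP (adjusted p = 0.0189), since DSC2 and PKP2 have a mean below 5 and were not tested there. JUP joined PKP2, giving 2 higher members, with a pseudocount of 0.1 (adjusted p = 0.0498), with the replicate block (0.0286) and with limma voom on recovered reads (0.000336). With any 1 library left out, 1 library remains in a group, so no counts past the threshold are given for those fits. Over all genes, 81 were lower and 48 higher without a filter, and 381 and 312 with eBayes without a trend. With the replicate block these counts were 965 and 1002, and with limma voom 1563 and 1762. The log2 difference of PERP ranged from -1.83 to -1.77 over the settings with 4 libraries and from -1.84 to -1.71 without 1 library. DSP took the other sign in 2 of the 4 fits without 1 library (-0.01 to 0.04) and DSG2 in 1 (-0.15 to 0.02). Of the 14 list genes, 0 passed without a filter, 8 with eBayes without a trend and 11 with the replicate block, where CLDN1, GJB5 and NECTIN4 lost their calls (adjusted p = 0.0575, 0.0561 and 0.0512). The labels do not say that equal replicate numbers share a batch, and same-numbered libraries correlated by 0.0973 in their deviations, so no pairing was established. The cause of these changes was not tested. The share of DSG3 was not run. With 2 libraries a group, the spread rests on 2 residual degrees of freedom before pooling over genes.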
